A study of Mus musculus with 14 samples.

Results

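Brain tissue of mice that had received acupuncture after an intracerebral haemorrhage was compared with brain tissue of sham-operated mice, to describe which RNAs and which m6A peaks still lay away from sham after treatment. The comparison uses 10 of the 14 samples of the series: the acupuncture group with 2 immunoprecipitated and 2 input libraries, and the sham group with 3 of each. In the acupuncture group a haemorrhage had been made by injecting the animal's own blood into the brain, and the GV20 point was then treated on 7 consecutive days. The untreated haemorrhage group (ICH; 2 immunoprecipitated and 2 input libraries) is given beside it where it helps to place a value. Sham animals were operated on without a haemorrhage. The labels gave no strain, age, sex or brain region, and did not state whether replicates came from different animals, so p-values measure the spread between these samples.

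Blood that leaks into the brain is broken down by microglia and infiltrating macrophages, which take up red cells, split haem into iron, biliverdin and carbon monoxide with haem oxygenase, and store or export the iron. Astrocytes around the haematoma become reactive, while neurons and myelin near it can be lost. N6-methyladenosine (m6A) is a methyl mark that METTL3, METTL14 and WTAP place on mRNA, mostly near stop codons and in 3' UTRs. FTO and ALKBH5 remove it, and YTH-domain proteins bind it and steer splicing, translation and decay. GV20 (Baihui) is an acupuncture point on the crown of the head.

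RNA was measured as FPKM (fragments scaled by transcript length and by library size) in the 7 input libraries. Of 31507 genes in the table, 13666 averaged 1 FPKM or more across the 7 input libraries and were tested on log2(FPKM + 1) with limma, in 1 fit with a mean per group. Fold changes of low genes are understated on that scale. Totals of FPKM were 192523 and 198472 in the acupuncture libraries and 181868 to 182491 in the sham libraries, and read depth was unknown. Markers of neurons, astrocytes, oligodendrocytes, microglia and striatum were present in every library. Albumin (liver) and Ckm (muscle) were at or near 0. The second liver marker, Apoa1, had 0.282 to 0.804 FPKM over the 7 input libraries. The second skeletal muscle marker, Acta1, had 1.85 to 3.17 FPKM.

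The libraries also differed within groups. Across tested genes the 2 acupuncture libraries correlated at 0.976, and 190 genes differed by more than 2-fold between them, against 83 to 125 genes in pairs of sham libraries. Ttr, the main transcript of the choroid plexus, had 335 and 1.13 FPKM in the acupuncture libraries and 473, 468 and 439 FPKM in the sham libraries, so that only acupuncture replicate 2 lacked it. Replicate 2 also held genes known from the olfactory bulb: Cdhr1 had 0.940 and 21.97 FPKM in acupuncture and 1.47, 3.53 and 1.95 FPKM in sham, and Doc2g had 0.754 and 14.3 FPKM in acupuncture and 0.506, 2.51 and 1.27 FPKM in sham. These genes were picked after their values were seen. In the sham group, the hypothalamic peptide precursor Pmch had 0 and 0 FPKM in the acupuncture libraries, against 32.7, 0.0812 and 29.8 FPKM in the sham libraries, and Oxt, the oxytocin precursor, had 0 and 0.0778 against 34.03, 0.0889 and 26.6 FPKM. Acupuncture replicate 2 therefore differed in choroid plexus and olfactory bulb genes. The 2 hypothalamic genes were at or near 0 in both acupuncture libraries and in sham replicate 2, unlike in sham replicates 1 and 3. The part of these differences in the results below was not tested, except where a value without a library is given. ICH replicate 2 stood apart from every other library, with a correlation of 0.942 to ICH replicate 1. In bulk tissue, fewer cells of a type and less RNA per cell cannot be told apart.

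After 7 days of acupuncture, 1598 of 13666 genes still differed from sham (limma, Benjamini-Hochberg adjusted p under 0.05, 11.7% of genes tested). Higher genes numbered 1158 (8.47%) and lower genes 440 (3.22%). Among them 564 were at least 2-fold higher and 75 at least 2-fold lower on the log2(FPKM + 1) scale. In no called gene did the 2 acupuncture libraries overlap the 3 sham libraries. The call itself selects for such separation, so it is not read further. Where called genes are said below to be clear of sham, this only describes their values and adds nothing to the call. The median log2 fold change of all tested genes was 0.04 in acupuncture against sham. The balance of directions depended on scaling: 72.5% of called genes were higher as deposited, 57.2% after each library was centred on its median (1001 higher, 748 lower) and 56.1% after quantile normalization (923 higher, 721 lower). Of the 1158 higher genes 360 averaged under 1 FPKM in sham, so that they passed the filter through the haemorrhage libraries, where they are high. Counts over lists that hold such genes are given with their number and not read further. Leaving out 1 acupuncture or sham library at a time left 805 to 1045 calls, leaving out ICH replicate 1 or 2 gave 3215 or 3209, and the 5 acupuncture and sham libraries alone gave 3207. Of the genes, 597, 527 higher and 70 lower, were called without each of the 7 libraries in turn.

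**Figure D1:**
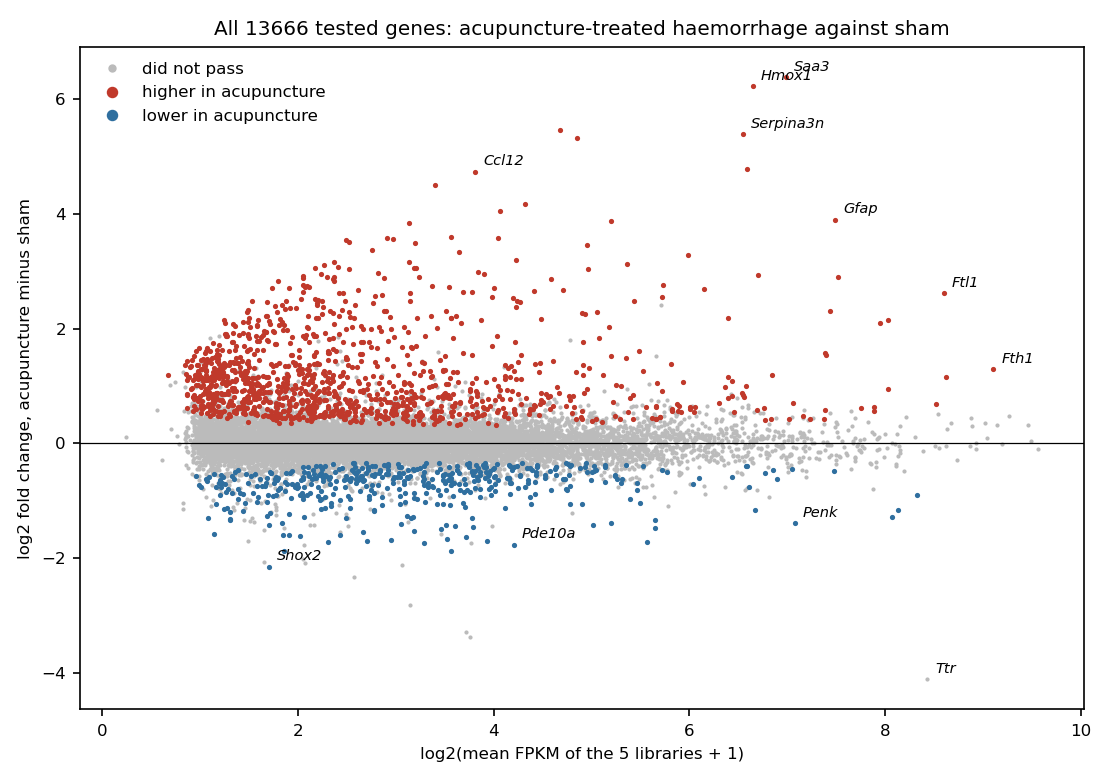
Each point is 1 of the 13666 tested genes; the x axis gives log2(mean FPKM of the 5 acupuncture and sham libraries + 1) and the y axis the log2 fold change, acupuncture minus sham. Red points are the 1158 genes that passed and were higher, blue points the 440 that passed and were lower, grey points the rest. The largest rises, Saa3 and Hmox1, lie above 6, while the falls of called genes reach -2.15 for Shox2; Ttr lies lower still but is grey, with 335 and 1.13 FPKM in its 2 acupuncture libraries.

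Genes that handle haem and iron still differed from sham. Of the 14 tested genes of that list 10 were higher, 3 of these with a sham mean under 1 FPKM, and 1 was lower. The list's median log2 fold change was 1.17, against 0.04 for all tested genes. Hmox1, the haem oxygenase that splits haem (ENSMUSG00000005413; chromosome 8, 75093621 to 75100589, GRCm38), had 240.0 and 249 FPKM in the acupuncture libraries, 144 and 141 FPKM in the ICH libraries and 2.10, 2.67 and 2.08 FPKM in the sham libraries. The haemorrhage groups did not overlap sham, and both acupuncture libraries lay above both ICH libraries. Between acupuncture and ICH 5 of the 13666 tested genes passed, and Hmox1 was not among them. The 5 are named further below, and for any other gene an order of these groups is only a description. The means were 245 ± 6.47 FPKM in acupuncture (SD, n = 2) and 2.29 ± 0.337 FPKM in sham (SD, n = 3), 6.23 apart on the log2 scale (SE 0.11, limma adjusted p = 2.4e-06). Hmox2, the constitutive haem oxygenase, had 21.3 and 18.96 FPKM in acupuncture and 19.2, 18.03 and 19.3 FPKM in sham, with overlapping groups.

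Both ferritin chains, which store iron, were among the most abundant RNAs that rose. Ftl1, the light chain, had 796 and 758 FPKM in acupuncture, 544 and 249.9 FPKM in ICH and 130.1, 125 and 122 FPKM in sham (log2 fold change 2.62, limma adjusted p = 0.00191). Fth1, the heavy chain with ferroxidase activity, had 926 and 783 FPKM in acupuncture, 614 and 826 FPKM in ICH and 354, 339 and 343 FPKM in sham (log2 fold change 1.30, limma adjusted p = 0.00291). Both acupuncture libraries stood clear of every sham library for each chain, and the Fth1 value of ICH replicate 2 fell between the acupuncture values. Tfrc, the transferrin receptor that imports iron, was the 1 gene of the list that fell, with 9.22 and 8.90 FPKM in acupuncture against 16.3, 16.4 and 16.6 FPKM in sham (log2 fold change -0.79, limma adjusted p = 0.0016). Slc11a1, the metal transporter of the phagosome, rose by 2.51 on the log2 scale, Cp (ceruloplasmin) by 1.87, and the biliverdin reductase Blvrb by 1.04. The iron exporter Slc40a1 (ferroportin) rose by 0.75, a call lost without acupuncture replicate 2. Besides Hmox2, the members that did not pass were Blvra (0.37) and the iron transporter Slc11a2 (0.11).

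Secreted acute-phase genes gave the largest log2 fold change of the 13666 genes tested. Saa3, a serum amyloid A protein of inflamed tissue (ENSMUSG00000040026; chromosome 7, 46711998 to 46715700), had 324 and 297 FPKM in acupuncture, 62.7 and 26.1 FPKM in ICH and 2.60, 2.67 and 2.88 FPKM in sham. All 3 groups were apart, with sham lowest and acupuncture highest. Its log2 fold change was 6.39 against sham (SE 0.32, limma adjusted p = 8.08e-05) and 2.90 against ICH, where it did not pass (limma adjusted p = 0.0789). Lcn2, lipocalin 2, which binds bacterial siderophores, had 91.7 and 45.8 FPKM in acupuncture, 38.6 and 41.9 FPKM in ICH and 0.595, 0.765 and 0.574 FPKM in sham. Hp, haptoglobin, which binds free haemoglobin, had 14.8 and 5.60 FPKM in acupuncture, 1.96 and 1.20 FPKM in ICH and 1.15, 1.10 and 1.001 FPKM in sham. For Lcn2 and Hp acupuncture replicate 1 was the higher one, and both replicates stood clear of sham (log2 fold changes 5.33 and 2.30, limma adjusted p = 8.08e-05 and 0.00629).

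Microglia and macrophage genes were mostly higher. Of 14 tested, 13 were higher and 1 was lower (median log2 fold change 2.20). Lyz2, the lysozyme of macrophages and neutrophils, had 232 and 222 FPKM in acupuncture, 107 and 178 FPKM in ICH and 6.40, 7.39 and 8.20 FPKM in sham (log2 fold change 4.78, limma adjusted p = 5.44e-05). C1qb, which encodes part of complement C1q, had 146 and 141 FPKM in acupuncture, 117 and 135 FPKM in ICH and 20.8, 21.3 and 21.7 FPKM in sham (log2 fold change 2.70, limma adjusted p = 3.33e-05). In both genes every haemorrhage library lay above the sham libraries. The gene that went the other way was P2ry12, the purinergic receptor that homeostatic microglia carry, with 6.99 and 5.55 FPKM in acupuncture, 12.3 and 22.1 FPKM in ICH and 11.97, 12.4 and 12.9 FPKM in sham (log2 fold change -0.89, limma adjusted p = 0.0477). Its call was lost without any 1 of the acupuncture or sham libraries. Siglech, another receptor of homeostatic microglia, had 1.13 and 0.576 FPKM in acupuncture, 2.995 and 3.78 FPKM in ICH and 3.002, 3.11 and 3.63 FPKM in sham (log2 fold change -1.21, limma adjusted p = 0.00398). For P2ry12 and Siglech the acupuncture libraries were the lowest of all 7. Cx3cr1 and Tmem119, 2 further genes of resident microglia, were higher, by 1.06 and 1.29 on the log2 scale.

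Genes of uptake and digestion were also higher. Of 16 lysosomal and cathepsin genes 14 were higher (median 1.18), a count that fell to 9 without either acupuncture library. Ctsd, an aspartic protease of the lysosome, had 461 and 449.9 FPKM in acupuncture and 104, 102 and 111 FPKM in sham, and Ctsz had 104 and 104 FPKM in acupuncture and 15.3, 18.5 and 17.1 FPKM in sham. Neither gene's groups overlapped. Of 13 tested genes of lipid-laden phagocytes 10 were higher (median 1.58), 5 of these with a sham mean under 1 FPKM, among them Lgals3 (galectin 3, 2.97), Ch25h (cholesterol 25-hydroxylase, 3.06) and Plin2 (the lipid droplet coat protein perilipin 2, 2.20). Apoe, the main lipid carrier of the brain, did not pass, at 567 and 621 FPKM in acupuncture and 479, 439 and 481 FPKM in sham.

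Complement, antigen presentation and chemokine genes came next. Of 14 tested complement and antigen presentation genes 13 were higher (median 2.19), and H2-Ab1 did not pass (1.33, limma adjusted p = 0.0506). The 13 tested cytokine and chemokine genes were higher too (median 2.22). In sham, 8 of those 14 genes averaged under 1 FPKM, so that the filter partly set their count. Each of those 13 averaged under 1 FPKM in sham and could pass the filter only through the haemorrhage libraries. The count and median of the 13 are therefore not read further. C4b, complement C4, had 24.3 and 34.03 FPKM in acupuncture and 2.73, 2.76 and 2.74 FPKM in sham (log2 fold change 2.99, limma adjusted p = 0.000366). Ccl12, a monocyte-attracting chemokine, had 35.2 and 29.1 FPKM in acupuncture, 16.8 and 14.05 FPKM in ICH and 0, 0.252 and 0.508 FPKM in sham, where 1 library listed it at 0 (log2 fold change 4.74, limma adjusted p = 3.77e-05). The haemorrhage groups were again clear of sham, with acupuncture above ICH in both libraries, though Ccl12 did not pass between acupuncture and ICH. Other chemokines were Ccl2 (3.10), Ccl5 (3.52) and Cxcl16 (2.90), and the cytokine Tnf (1.91) passed as well. Il1b also passed (1.65), but not without acupuncture replicate 1 or any 1 sham library. Il6 stayed under the filter, with at most 0.0569 FPKM in acupuncture.

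Neutrophil genes were mixed. Of 12 listed genes 4 passed the filter, and all 4 were higher; because a gene can pass the filter through the group where it is high, this count is not read further. The defining marker Ly6g was at 0.145 and 0 FPKM in acupuncture and listed at 0 in all 3 sham libraries. Of the other listed genes under the filter, Mpo was listed at 0 in both acupuncture libraries, and Ngp had 0.405 and 0.212 FPKM in acupuncture and 0.501, 0.455 and 0.746 FPKM in sham. Camp had 0.341 and 0.116 FPKM in acupuncture and 0.179, 0.274 and 0.224 FPKM in sham, and Ltf 0.0825 and 0.0294 FPKM in acupuncture and 0.0378, 0.0799 and 0.102 FPKM in sham, with overlapping groups in both. Cxcr2 and Retnlg, also under the filter, were above sham in both acupuncture libraries. Cxcr2 had 1.66 and 1.28 FPKM in acupuncture and 0.0502, 0.0301 and 0.0245 FPKM in sham. Retnlg had 1.13 and 1.02 FPKM in acupuncture and 0.266, 0.292 and 0.670 FPKM in sham. S100a8, a calcium-binding protein abundant in neutrophils, had 30.9 and 19.2 FPKM in acupuncture, 5.33 and 6.64 FPKM in ICH and 3.67, 2.63 and 2.93 FPKM in sham. S100a9, its partner, had 43.4 and 27.8 FPKM in acupuncture, 9.92 and 7.18 FPKM in ICH and 4.79, 4.37 and 6.48 FPKM in sham. Both genes were highest in acupuncture without overlap, and their log2 fold changes against sham were 2.64 and 2.54 (limma adjusted p = 0.000511 and 0.000899). Against ICH they did not pass (limma adjusted p = 0.0827 for both). The summed FPKM of the neutrophil genes was 88.1 and 59.0 in acupuncture, 22.7 and 24.3 in ICH and 9.91 to 12.8 in sham; the part of neutrophil number in these values was not tested. The formyl peptide receptor Fpr1, found on neutrophils and macrophages, had 11.4 and 8.17 FPKM in acupuncture, 1.94 and 2.70 FPKM in ICH and 0.342, 0.381 and 0.559 FPKM in sham. The T lymphocyte marker Cd3e was near 0, with at most 0.0851 FPKM in acupuncture.

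The 14 tested interferon response genes were higher (median 2.20), of which 6 averaged under 1 FPKM in sham. Isg15, a ubiquitin-like protein induced by interferon (ENSMUSG00000035692; chromosome 4, 156199455 to 156200796), had 19.2 and 52.9 FPKM in acupuncture, 16.8 and 4.99 FPKM in ICH and 1.85, 1.40 and 2.12 FPKM in sham (log2 fold change 3.57, SE 0.53, limma adjusted p = 0.00652). Ifit1 had 4.49 and 11.1 FPKM in acupuncture and 0.682, 0.610 and 1.12 FPKM in sham, and Irf7, the transcription factor that amplifies interferon production, 3.63 and 10.98 FPKM in acupuncture and 0.603, 0.543 and 0.656 FPKM in sham. In each of these acupuncture replicate 2 was the higher one, and both replicates lay above sham. Ifitm3, a membrane protein that blocks virus entry, was the most abundant of the list, averaging 136 ± 23.6 FPKM in acupuncture (SD, n = 2) and 13.2 ± 2.98 FPKM in sham (SD, n = 3; log2 fold change 3.28, limma adjusted p = 0.000229).

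The promoters of these genes are shown because they share a motif. Interferon-stimulated genes are known to carry an element that interferon-activated factors bind, whose core has a pair of GAAA repeats. In the 250 bases before the start site (RefSeq, GRCm38.p6), GAAA, any 2 bases and GAAA again, or on the other strand TTTC, any 2 bases and TTTC, was found for 7 of the 10 tested list members with a promoter entry. Over all 27025 genes with an entry the share was 3.46%. Among called genes it was 7.13% of those higher (62 of 869), 3.28% of those lower (11 of 335) and 2.63% of those not called (231 of 8779). Matches overlap each other in Isg15, Bst2 and Gbp3, and a match of letters is a description, not a bound site. In each line capitals mark the match nearest the start site, written 5' to 3' on the gene's strand.
Isg15 (chr4:156200865-156200894, minus strand): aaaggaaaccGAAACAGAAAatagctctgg
Ifit1 (chr19:34640794-34640823, plus strand): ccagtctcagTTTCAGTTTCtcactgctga
Ifit3 (chr19:34583397-34583426, plus strand): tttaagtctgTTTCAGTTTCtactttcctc
Bst2 (chr8:71537577-71537606, minus strand): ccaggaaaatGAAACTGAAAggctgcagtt
Gbp2 (chr3:142620594-142620623, plus strand): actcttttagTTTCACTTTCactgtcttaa
Rsad2 (chr12:26456553-26456582, minus strand): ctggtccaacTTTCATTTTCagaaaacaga
The log2 fold changes of these genes were 3.57 for Isg15, 2.19 for Ifit1, 2.71 for Ifit3, 2.95 for Bst2, 2.28 for Gbp2 and 1.13 for Rsad2. Over the 7 genes with a match, the matches began 39 to 156 bases before the start site.

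**Figure D2:**
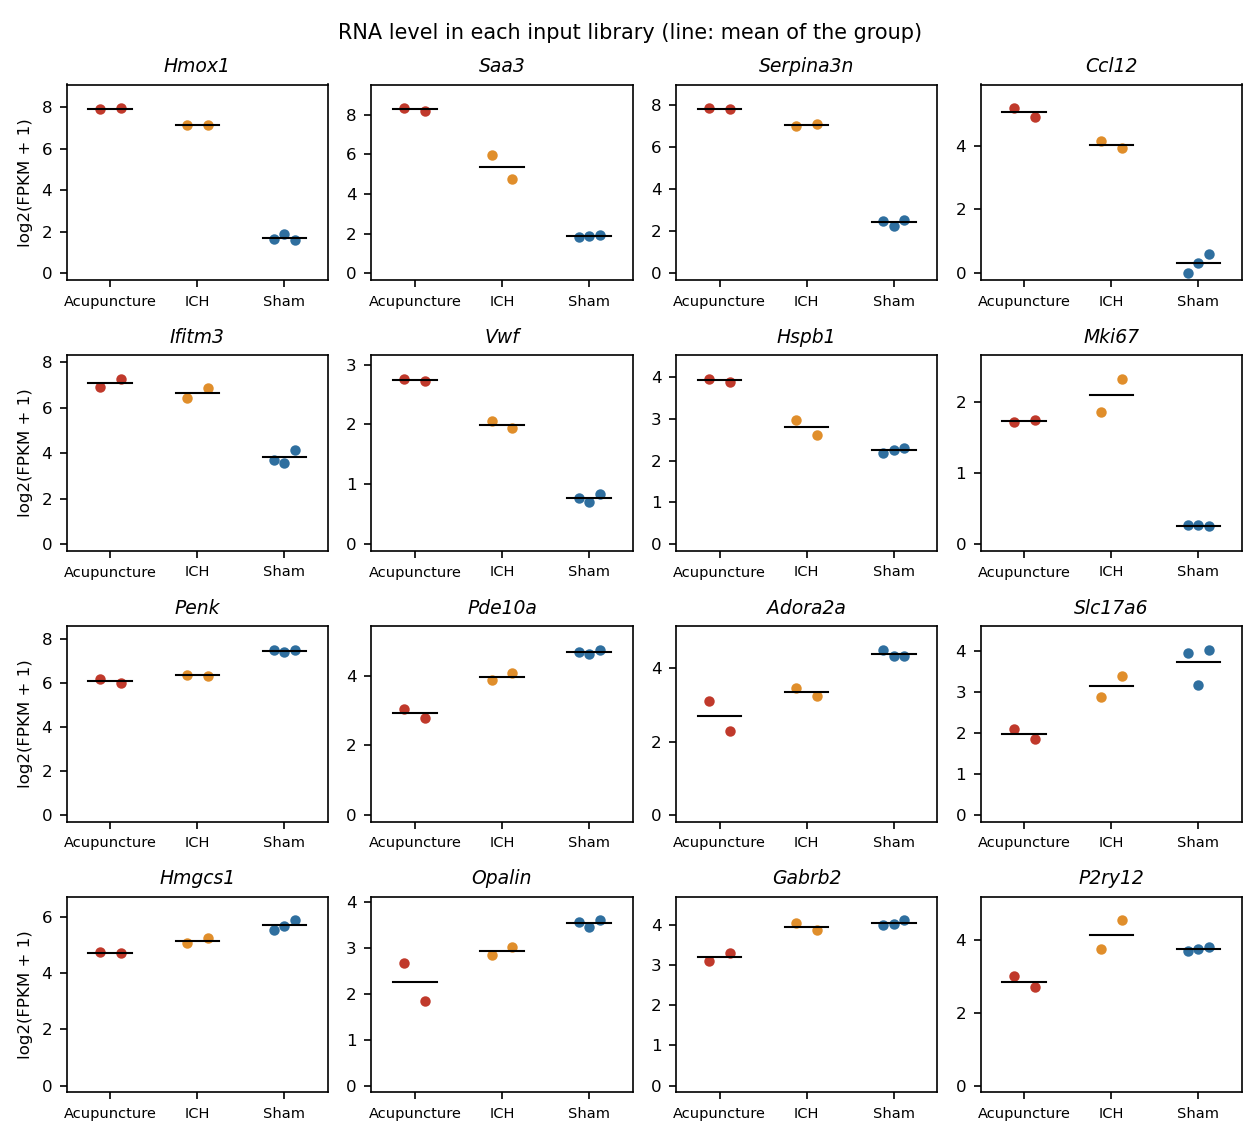
Each panel shows log2(FPKM + 1) of 1 gene in the 2 acupuncture, 2 ICH and 3 sham input libraries; points are libraries and lines group means. In Hmox1, Saa3, Serpina3n, Ccl12, Ifitm3, Vwf, Hspb1 and Mki67 the acupuncture points lie above all sham points, and in Penk, Pde10a, Adora2a, Slc17a6, Hmgcs1, Opalin, Gabrb2 and P2ry12 below them.

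Genes of reactive astrocytes were still high. Of 15 reactive astrocyte genes 14 were higher (median 1.92), 7 of these with a sham mean under 1 FPKM. Gfap, the intermediate filament of astrocytes, had 451 and 362 FPKM in acupuncture, 394 and 338 FPKM in ICH and 23.98, 25.4 and 29.4 FPKM in sham (log2 fold change 3.90, limma adjusted p = 3.33e-05). Serpina3n, a serpin made by astrocytes after injury (ENSMUSG00000021091; chromosome 12, 104406729 to 104414329), had 229 and 219 FPKM in acupuncture, 128 and 134 FPKM in ICH and 4.59, 3.70 and 4.85 FPKM in sham (log2 fold change 5.39, limma adjusted p = 5.71e-06). For Serpina3n both acupuncture libraries exceeded both ICH libraries without passing between these groups, while for Gfap the haemorrhage groups overlapped. Vim and Timp1 (a metalloproteinase inhibitor) rose by 3.88 and 5.46 on the log2 scale. Of 12 genes of astrocyte homeostasis, such as glutamate uptake, only Aldh1l1 (1.18) and Slc1a3 (0.42) passed, and neither did without any 1 of the acupuncture or sham libraries. The water channel Aqp4 had 33.2 and 29.5 FPKM in acupuncture and 16.6, 16.8 and 23.2 FPKM in sham (limma adjusted p = 0.081).

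Vessel, matrix and clotting genes were higher in part. Of 14 genes of endothelium and barrier 6 were higher (median 0.33), a count of 2 without either acupuncture library and of 3 without sham replicate 1. Vwf, von Willebrand factor, had 5.78 and 5.61 FPKM in acupuncture, 3.17 and 2.81 FPKM in ICH and 0.697, 0.629 and 0.788 FPKM in sham (log2 fold change 1.97, limma adjusted p = 8.09e-05). Slc2a1, the glucose transporter of the barrier, had 44.7 and 40.2 FPKM in acupuncture, 27.7 and 24.7 FPKM in ICH and 23.3, 19.7 and 21.7 FPKM in sham (log2 fold change 0.95, limma adjusted p = 0.00247). In both the acupuncture libraries were the highest of all 7, but neither gene passed against ICH. Vwf was the 1 higher gene of the endothelium list with a sham mean under 1 FPKM. Of 8 tested mural cell genes, those of pericytes and vascular smooth muscle, Tagln alone rose (2.19). Of 12 matrix genes 7 did, 1 of them with a sham mean under 1 FPKM. Among the 7 were Fn1 (fibronectin, 1.67), Dcn (decorin, 1.59), Mmp14 (1.58) and the basement membrane collagen Col4a1 (1.22). Of 12 tested clotting and fibrinolysis genes 8 were higher (3 to 5 with 1 acupuncture or sham library left out), 4 of them with a sham mean under 1 FPKM, among them F13a1, a clotting factor that macrophages make (2.23).

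Stress genes were higher in part. Hspb1, a small heat shock protein, had 14.5 and 13.8 FPKM in acupuncture, 6.89 and 5.11 FPKM in ICH and 3.55, 3.77 and 3.93 FPKM in sham (log2 fold change 1.67, limma adjusted p = 0.000366), and was 1 of 3 of 12 heat shock genes that rose. That count was 1 without either acupuncture library. The abundant chaperone Hspa8 did not pass (275 and 275 FPKM in acupuncture, 272, 287 and 294 FPKM in sham). Mt2, a zinc-binding metallothionein, had 526 and 446 FPKM in acupuncture, 294 and 226 FPKM in ICH and 121, 88.8 and 116 FPKM in sham (log2 fold change 2.16, limma adjusted p = 0.000674). Of 15 genes of ferroptosis and glutathione 5 were higher, 2 without acupuncture replicate 1 or without sham replicate 1 and 3 without sham replicate 3. Nfe2l2, the transcription factor of the antioxidant response, rose by 1.41 and the cystine importer Slc7a11 by 0.92. Gpx4, the peroxidase that guards against lipid peroxidation, had 90.04 and 81.5 FPKM in acupuncture and 78.2, 75.9 and 69.6 FPKM in sham, and did not pass (limma adjusted p = 0.702). The 6 tested cell cycle genes were higher (median 1.18), of which 4 averaged under 1 FPKM in sham. The proliferation marker Mki67 had 2.27 and 2.33 FPKM in acupuncture, 2.64 and 4.004 FPKM in ICH and 0.199, 0.203 and 0.188 FPKM in sham. Of 7 tested apoptosis and pyroptosis genes 4 were higher, each with a sham mean under 1 FPKM, among them Gsdmd (gasdermin D, 1.34) and Casp8 (1.27).

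**Figure D3:**
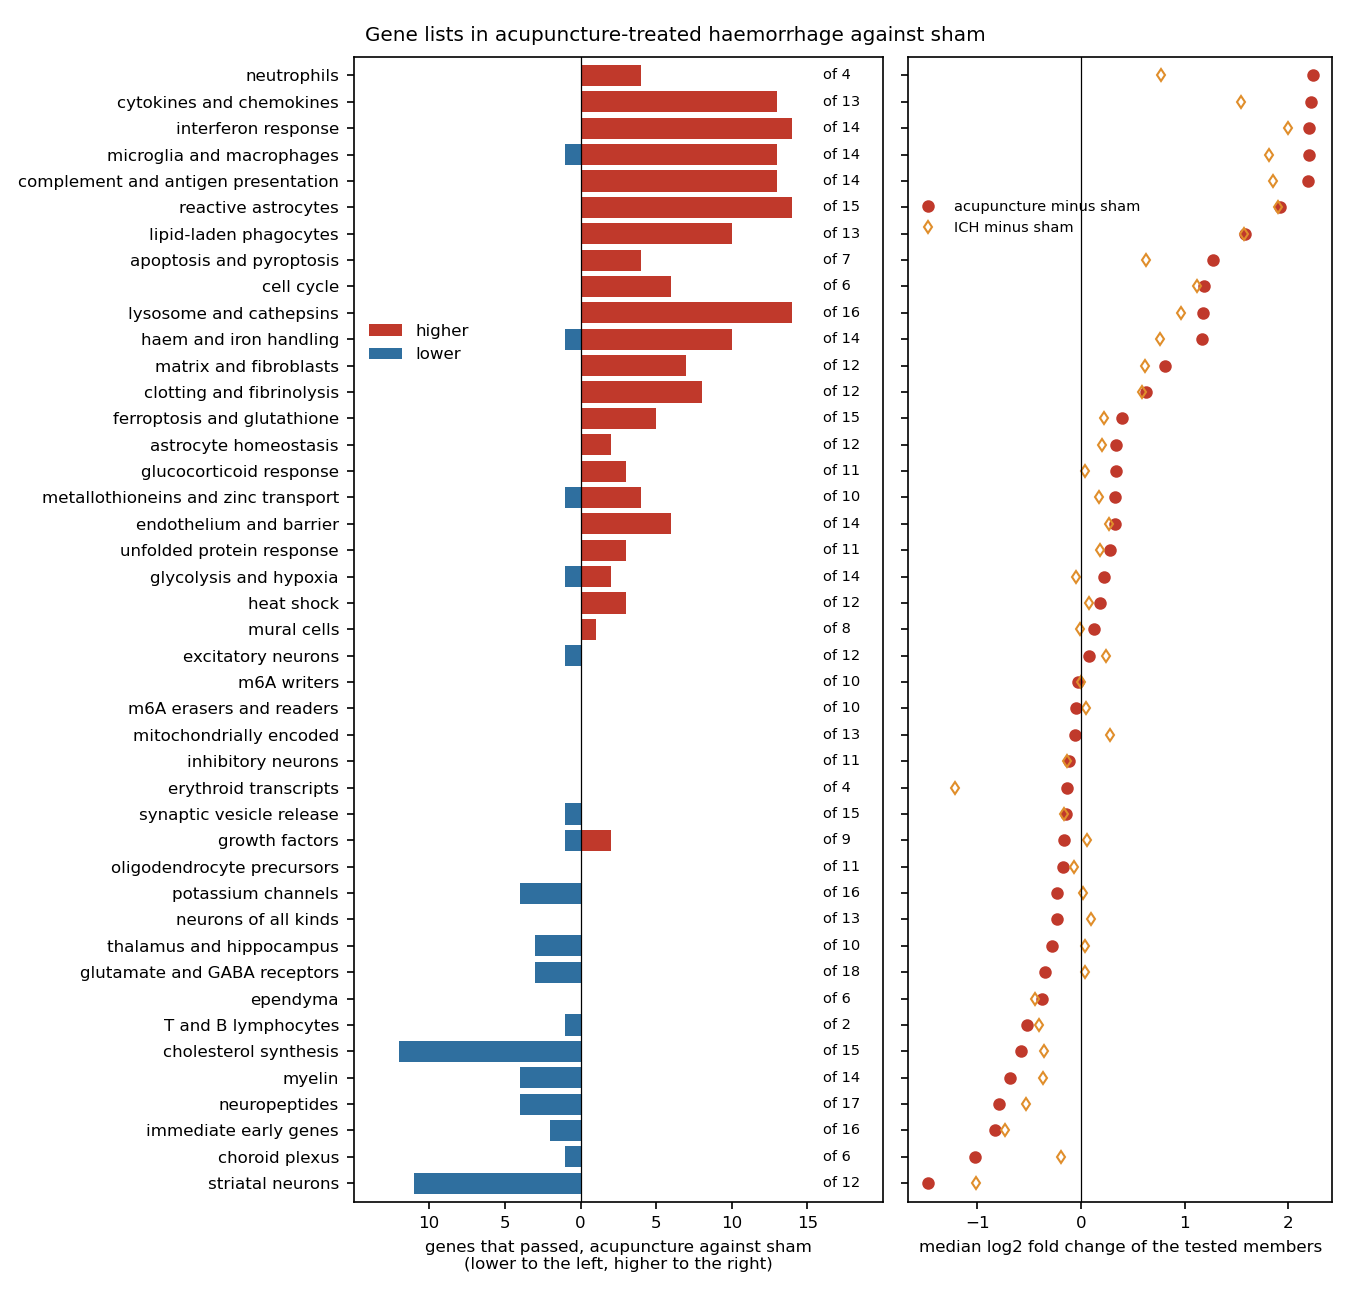
The left panel gives for each of the gene lists the number of tested members that passed, lower ones to the left of 0 and higher ones to the right, with the number tested at the edge. The right panel gives the median log2 fold change of the tested members, as red dots for acupuncture minus sham and open diamonds for ICH minus sham; both comparisons share the sham libraries. The largest counts are 14 of 14 interferon, 14 of 15 reactive astrocyte and 14 of 16 lysosomal genes higher, and 12 of 15 cholesterol synthesis and 11 of 12 striatal genes lower. Over all tested genes 8.47% were higher and 3.22% lower. Of the higher genes, 6 interferon and 7 reactive astrocyte genes averaged under 1 FPKM in sham, so the filter partly set those counts.

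Among genes that stayed lower, those of striatal projection neurons formed the most complete group. Of 12 tested, 11 were lower and none higher, with a median log2 fold change of -1.48, and at least 9 stayed called when any 1 library was left out. Pde10a, the phosphodiesterase of these neurons (ENSMUSG00000023868; chromosome 17, 8525372 to 8986648), had 7.25 and 5.89 FPKM in acupuncture, 13.7 and 15.7 FPKM in ICH and 24.7, 23.5 and 25.8 FPKM in sham. The 3 groups did not overlap and acupuncture was the lowest. Its means were 6.57 ± 0.966 FPKM in acupuncture (SD, n = 2) and 24.7 ± 1.12 FPKM in sham (SD, n = 3), -1.77 apart on the log2 scale (SE 0.12, limma adjusted p = 0.000215). Against ICH the fold change was -1.05 (limma adjusted p = 0.0789).

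Other striatal genes covered both output pathways. Penk, the enkephalin precursor, had 71.9 and 62.96 FPKM in acupuncture, 82.8 and 79.3 FPKM in ICH and 181, 170.1 and 183 FPKM in sham (log2 fold change -1.39, limma adjusted p = 0.000385). Drd1, the dopamine receptor of the direct pathway, had 5.57 and 3.88 FPKM in acupuncture and 15.2, 13.6 and 14.01 FPKM in sham (log2 fold change -1.43, limma adjusted p = 0.00162). Adora2a, the adenosine receptor of the indirect pathway, had 7.54 and 3.89 FPKM in acupuncture and 21.7, 19.04 and 19.3 FPKM in sham (log2 fold change -1.70, limma adjusted p = 0.00395). No acupuncture library overlapped sham in these genes, and in Drd1 and Adora2a the second acupuncture replicate was the lower one. Also lower were Rgs9 (-1.87), Tac1 (the substance P precursor, -1.50) and Drd2 (-1.67, which lost its call without acupuncture replicate 2). Pdyn, the dynorphin precursor, did not pass, with 9.50 and 5.33 FPKM in acupuncture and 12.6, 10.4 and 12.9 FPKM in sham. Of 13 pan-neuronal, 11 inhibitory and 12 excitatory genes, Slc17a6 was the 1 that passed.

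Genes known from the thalamus included the largest fall among called genes. Shox2, a homeobox factor expressed in the thalamus, had 0.0663 and 0.0221 FPKM in acupuncture, 1.38 and 2.000 FPKM in ICH and 3.79, 2.57 and 4.80 FPKM in sham (log2 fold change -2.15, SE 0.21, limma adjusted p = 0.00124). Slc17a6, the vesicular glutamate transporter of thalamic neurons, had 3.29 and 2.63 FPKM in acupuncture, 6.39 and 9.45 FPKM in ICH and 14.5, 8.02 and 15.4 FPKM in sham (log2 fold change -1.74, limma adjusted p = 0.00915). Tcf7l2, a Wnt pathway factor of thalamic neurons, had 0.545 and 0.656 FPKM in acupuncture, 1.66 and 3.24 FPKM in ICH and 4.09, 2.73 and 5.02 FPKM in sham (log2 fold change -1.60, limma adjusted p = 0.00857). In all 3 genes both acupuncture libraries lay below the other 5, and sham replicate 2 was the lowest sham library, overlapped by ICH in Slc17a6 and Tcf7l2. Shox2 kept its call without each library, while Slc17a6 and Tcf7l2 lost theirs without either acupuncture library. Of the 10 tested genes of the thalamus and hippocampus list, which holds Tcf7l2 but not the other two, 3 were lower, and 1 without acupuncture replicate 2. Both acupuncture libraries and sham replicate 2 also had Pmch and Oxt at or near 0, as given above. The part of the tissue taken in these falls was not tested.

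Genes of cholesterol synthesis formed the next group. All 15 tested genes had a log2 fold change below 0, between -0.97 and -0.38, and 12 passed (median -0.57). Hmgcs1, which makes HMG-CoA (ENSMUSG00000093930; chromosome 13, 119690379 to 119708260), had 25.8 and 25.4 FPKM in acupuncture, 32.3 and 37.5 FPKM in ICH and 45.9, 49.9 and 57.8 FPKM in sham (log2 fold change -0.97, limma adjusted p = 0.00379). Insig1, the sterol sensor that holds back SREBP, had 11.3 and 10.6 FPKM in acupuncture, 12.5 and 11.6 FPKM in ICH and 22.1, 18.6 and 22.5 FPKM in sham (log2 fold change -0.88, limma adjusted p = 0.00311). In both genes each acupuncture library lay below each ICH library and each sham library, but neither passed against ICH. Cyp51, a demethylase of the pathway, was lower too (-0.81). Srebf2, the transcription factor of the pathway, was lower (-0.48) but lost its call without any 1 acupuncture or sham library. The count was 13 after median centring or quantile normalization. It was 4 without acupuncture replicate 1 or 2, 5 without sham replicate 1 or 3 and 6 without sham replicate 2, with Hmgcs1, Insig1 and Cyp51 called each time.

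Some myelin genes were lower. Of 14 tested 4 passed (median -0.68). Opalin, a myelin membrane protein, had 5.41 and 2.58 FPKM in acupuncture, 6.21 and 7.10 FPKM in ICH and 10.9, 10.1 and 11.1 FPKM in sham (log2 fold change -1.29, limma adjusted p = 0.0131). Acupuncture replicate 2 was the lowest library, and neither acupuncture library overlapped sham. None of the 14 passed without sham replicate 1 or without sham replicate 3, 1 did without acupuncture replicate 2 and 8 without either ICH library. Cldn11, the tight junction protein of myelin, had 168 and 106 FPKM in acupuncture and 126, 106 and 137 FPKM in sham, with overlapping groups. None of 11 genes of oligodendrocyte precursors passed, with a median of -0.17.

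Ion channel and receptor genes showed smaller falls. Of 16 potassium channel genes 4 were lower (Kcna1, Kcnc1, Kcnc2 and Kcnq3, log2 fold changes -0.63 to -0.41). None of them passed without 1 sham library or without acupuncture replicate 1, and 1 did without acupuncture replicate 2. Of 18 glutamate and GABA receptor genes 3 were lower, 9 without either ICH library, and all 18 had a negative fold change (median -0.35). Gabrb2, a subunit of the GABA-A receptor, had 7.55 and 8.78 FPKM in acupuncture, 15.6 and 13.5 FPKM in ICH and 14.8, 15.3 and 16.2 FPKM in sham (log2 fold change -0.85, limma adjusted p = 0.00345). Grm5, a metabotropic glutamate receptor, had 11.6 and 11.1 FPKM in acupuncture, 16.6 and 18.2 FPKM in ICH and 17.4, 18.4 and 18.8 FPKM in sham (log2 fold change -0.64, limma adjusted p = 0.00525). In both the acupuncture libraries stood below every other library, while ICH overlapped sham. Against ICH neither passed (limma adjusted p = 0.111 for Gabrb2 and 0.134 for Grm5), and Grm5 lost its call against sham without acupuncture replicate 2. Of 17 neuropeptide genes 4 were lower: Penk and Tac1, given above, and Nts and Cartpt, in which sham replicate 2 was the lowest sham library (6.10, 3.14 and 8.56 FPKM for Nts in sham, against 0.883 and 1.11 FPKM in acupuncture). The count of 4 was 9 without sham replicate 2, 2 without sham replicate 1 and 7 without either ICH library.

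Vegfa, the main angiogenic growth factor, was lower at 6.72 and 8.77 FPKM in acupuncture against 12.8, 16.00 and 15.5 FPKM in sham (log2 fold change -0.85, limma adjusted p = 0.00949), a call lost without acupuncture replicate 1. Klhdc7a, a kelch domain protein, was listed at 0 in both acupuncture libraries, against 2.29 and 1.95 FPKM in ICH and 2.25, 1.43 and 2.35 FPKM in sham. No fold is given for it.

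Untreated haemorrhage was compared next. Of 13666 tested genes, 5 passed between acupuncture and ICH (0.0366%), 2754 had an unadjusted p under 0.05, and 776 passed between ICH and sham (5.68%). The comparisons with sham share its 3 libraries. Ctla2a, a cathepsin inhibitor, was 1 of the 5, with 17.2 and 19.2 FPKM in acupuncture, 5.37 and 4.03 FPKM in ICH and 1.15, 1.49 and 1.30 FPKM in sham (log2 fold change against ICH 1.76, limma adjusted p = 0.0176). Its value is uncertain, because reads may be shared with its close relative Ctla2b. Marco, a scavenger receptor of macrophages, had 8.14 and 14.9 FPKM in acupuncture, 2.91 and 1.51 FPKM in ICH and 0, 0.0421 and 0.0626 FPKM in sham, and lay further from sham in acupuncture than in ICH without passing between them (limma adjusted p = 0.101). C3, the central complement component, lay the other way, with 14.1 and 6.66 FPKM in acupuncture, 15.5 and 12.1 FPKM in ICH and 0.313, 0.176 and 0.333 FPKM in sham (limma adjusted p = 0.377 between acupuncture and ICH). Thbs1, thrombospondin 1, was also nearer to sham in acupuncture, with 1.97 and 2.11 FPKM in acupuncture, 3.23 and 5.12 FPKM in ICH and 0.765, 0.912 and 0.722 FPKM in sham, and its call against sham was lost without any 1 acupuncture or sham library. Without ICH replicate 1, 5105 genes passed between acupuncture and ICH, but ICH replicate 2 then stood alone and was assumed to vary like the other groups.

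m6A was compared through the authors' deposited table, which gives 1 log2 ratio of immunoprecipitate over input per group and peak, and so no spread between replicates. Of 17242 peaks listed between acupuncture and sham, 10974 had an authors' adjusted p under 0.05 (63.6% of those listed). Of these 6479 were higher in acupuncture (37.6% of those listed) and 4495 lower (26.1%). The table lists only peaks with a p of at most 0.05 or none, so these shares say nothing of all peaks. Most differences were small: 1551 peaks were at least 2-fold higher and 1130 at least 2-fold lower. Peaks in 3' UTRs made up 6953 of the 10974 in the authors' deposited table, and 62.2% of them were higher in acupuncture. The share was 50.6% of 976 5' UTR peaks, 52.4% of 1843 exon peaks and 68.8% of 461 intron peaks. The balance towards higher m6A thus lay in 3' UTRs and introns.

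**Figure D4:**
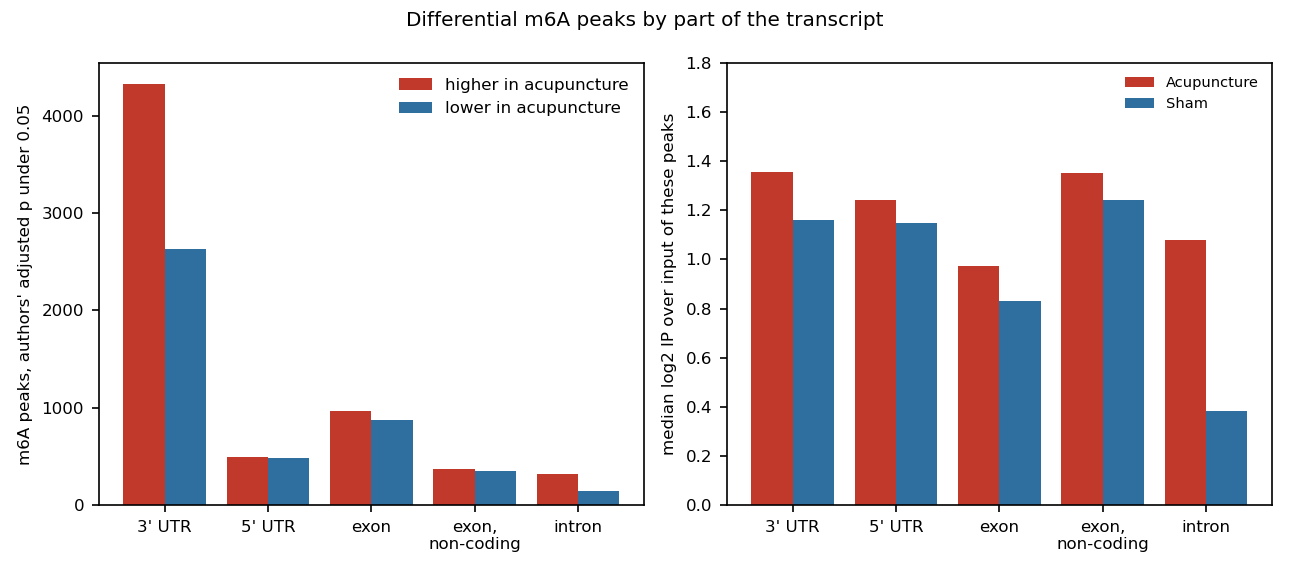
The left panel counts the peaks past the authors' adjusted p by part of the transcript, higher in acupuncture and lower; the right panel gives the median log2 ratio of immunoprecipitate over input of those peaks in acupuncture (red) and sham (blue), 1 value per group. In 3' UTRs the medians are 1.36 in acupuncture and 1.16 in sham, and 4325 peaks are higher against 2628 lower.

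The 2 groups had similar numbers of peaks. The authors' deposited peak lists held 50105 peaks for acupuncture and 48251 for sham, of which 75.0% of the acupuncture peaks and 76.6% of the sham peaks overlapped by at least 1 bp on the same strand. The RNA of the next genes did not pass. In the authors' deposited table, a 175 bp exon peak of Pebp1, a Raf kinase inhibitor (chromosome 5, 117285769 to 117285943), had a log2 ratio of 4.93 in acupuncture and -1.08 in sham, and 6.01 between them. A 475 bp peak on a non-coding RNA exon of Zxda (chromosome X, 94795913 to 94796387) had 3.18 in acupuncture and -2.75 in sham in the authors' deposited table. On the lower side of the authors' deposited table, an exon peak of Slit2, an axon guidance ligand, had -4.07 in acupuncture and 0.901 in sham, and an exon peak of Mfap1b, a splicing factor, -0.182 in acupuncture and 4.47 in sham. A negative ratio means less signal in the immunoprecipitate than in the input.

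None of 10 tested writer genes and none of 10 tested eraser and reader genes passed in RNA, with medians of -0.02 and -0.05. Mettl3, the catalytic writer subunit, had 2.65 and 3.35 FPKM in acupuncture and 2.65, 2.58 and 2.72 FPKM in sham, and Alkbh5, an eraser, 8.65 and 7.91 FPKM in acupuncture and 8.79, 8.38 and 9.27 FPKM in sham. In both genes the groups overlapped. In the authors' deposited table all 4 Alkbh5 peaks past the threshold were higher in acupuncture, by 0.46 to 0.64 on the log2 scale, and the 3' UTR peaks of Mettl3 and Mettl14, its partner, by 0.63 and 1.76. Of all peaks past the threshold in the authors' deposited table, 6 of 9 in writer genes and 10 of 15 in eraser and reader genes were higher. Over all tested genes it was 5913 of 9804 such peaks (60.3%). Both lists were near that share, so their counts are not read as a result about these genes. The higher ones included the eraser Fto (0.19) and the readers Hnrnpa2b1 (0.19 to 0.29) and Hnrnpc (0.19 and 0.29), while Wtap (0.33 and -0.32) and Cbll1 (0.53 and -0.83) had a peak each way. The same table had lower peaks in the 3' UTRs of the readers Ythdf1 (-0.26), Ythdf2 (-0.19), Ythdf3 (-0.23) and Ythdc1 (-0.35 and -0.26), and of the writer subunit Rbm15b (-0.36).

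In the authors' deposited table, 17 of 22 changed peaks of potassium channel genes were lower in acupuncture, over 13 genes. A lower peak in the authors' deposited table lay in the 5' UTR of Kcnq3 (-0.93). The share of lower peaks among all called peaks joined to a tested gene was 3891 of 9804. All 10 changed peaks of heat shock genes were higher in the authors' deposited table, among them those of Hspa8 (0.19), Hspd1 (0.37) and Hspa1a (0.47). Of myelin genes' peaks 17 of 22 were higher, of glutamate and GABA receptor genes' peaks 20 of 30 and of cholesterol synthesis genes' peaks 9 of 12, again by the authors' deposited table. Over all called peaks joined to a tested gene 60.3% were higher. The receptor share (66.7%) was near that value and is not read as a result about these genes. All 5 peaks of mitochondrially encoded genes and all 4 of cell cycle genes were lower in the authors' deposited table. Peaks of 1 gene are not independent of each other, and the lists differ in expression level and peak number.

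Joined by gene, called peaks lay in 6674 of the 13666 tested genes (48.8%): in 379 of the 1158 higher genes (32.7%), in 264 of the 440 lower genes (60.0%) and in 50.0% of the genes not called. Higher genes were less abundant, with a median of 3.63 FPKM against 7.22 FPKM for lower genes and 5.37 FPKM for all. Of the peaks in higher genes 50.9% were themselves higher in m6A (228 of 448), against 65.3% in lower genes (282 of 432) and 60.5% in genes not called, by the authors' deposited table. The share in higher genes was on the other side of 50% with 1 peak per gene (49.3%), after median centring (49.9%) and for differences of at least 1 on the log2 scale (42.1%). At a mean of at least 5 FPKM it was 59.0%, against 66.7% in lower genes and 63.1% over all. When the 5 acupuncture and sham libraries alone were fitted, it was 58.2%, against 61.3% in lower genes and 60.3% over all. The m6A ratio has the input RNA as its divisor, so that RNA and m6A share the input libraries. The share of higher peaks also moved with the level of the gene, with 52.6% among the 1961 peaks of the least expressed genes and 69.3% among the 1960 peaks of the most expressed, of 5 classes of level. In the lowest class it was 39.3% for higher genes (150 peaks) and 62.5% for lower genes (40 peaks), and in the highest class 78.0% for higher genes (82 peaks) and 74.5% for lower genes (102 peaks). The difference between higher and lower genes was not tested, and peaks of 1 gene share its RNA.

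**Figure D5:**
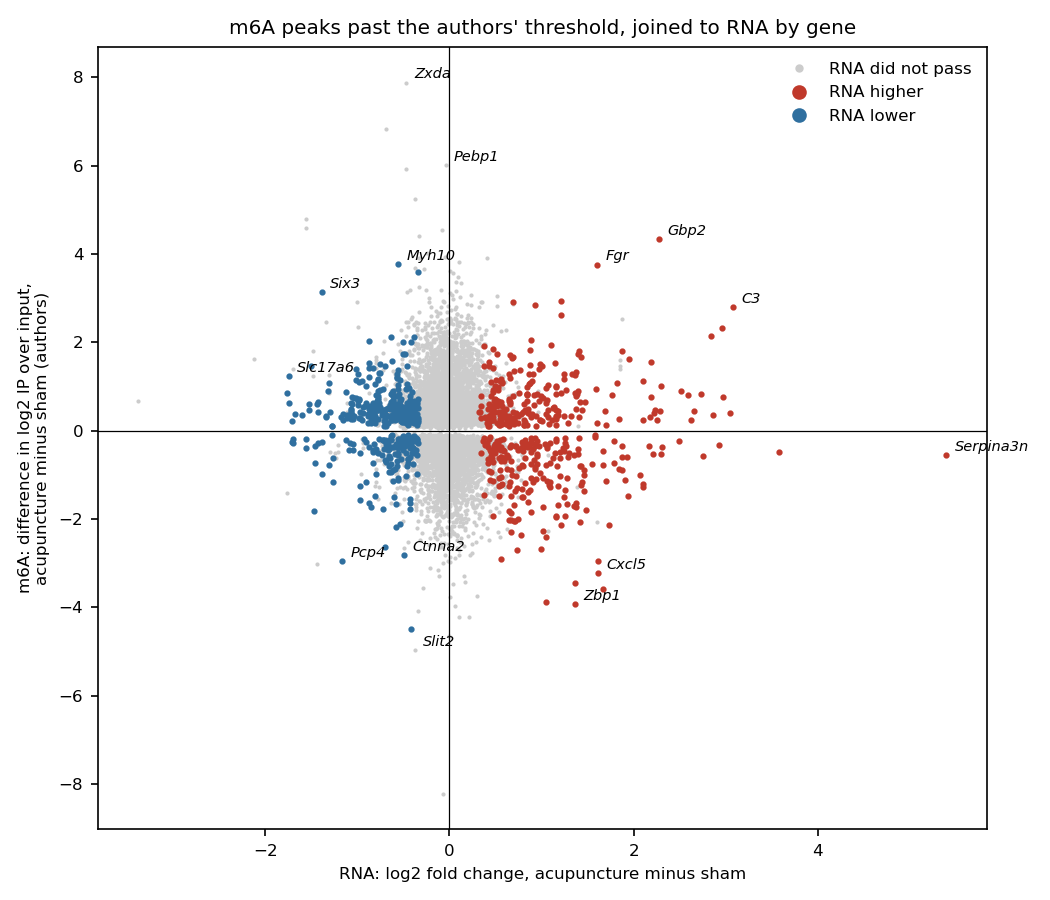
Each point is 1 m6A peak past the authors' adjusted p in a tested gene; the x axis gives the log2 fold change of the gene's RNA and the y axis the authors' log2 difference in m6A, both acupuncture minus sham. Red points are peaks in genes higher in RNA (448 peaks), blue points in genes lower in RNA (432 peaks) and grey points in genes not called (8924 peaks). Red and blue points lie on both sides of 0 on the m6A axis, with 228 red and 282 blue points above it.

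All 4 combinations held known genes. Gbp2, an interferon-induced GTPase whose promoter match is shown above, was higher in RNA (7.68 and 9.95 FPKM in acupuncture and 0.878, 0.824 and 1.37 FPKM in sham) and had an exon peak of 0.148 in acupuncture and -4.20 in sham in the authors' deposited table. C3 was higher in RNA and its exon peak had 0.454 in acupuncture and -2.34 in sham in the authors' deposited table (authors' adjusted p = 0.0439). C3 RNA was at 0.313, 0.176 and 0.333 FPKM in sham. The sham ratios of C3 and Gbp2 thus rest on low RNA. Zbp1, the nucleic acid sensor of necroptosis, was higher in RNA (0.885 and 2.93 FPKM in acupuncture and 0.0560, 0.0443 and 0.0744 FPKM in sham) while its 3' UTR peak had 0.988 in acupuncture and 4.91 in sham in the authors' deposited table. The limma adjusted p of Zbp1 was 0.0282 and its call was lost without acupuncture replicate 2 or any 1 sham library; its RNA was under 0.1 FPKM in every sham library. Six3, a homeobox gene of the striatal lineage, was lower in RNA (1.15 and 0.506 FPKM in acupuncture and 4.28, 2.96 and 3.97 FPKM in sham) and had an intron peak of 3.84 in acupuncture and 0.690 in sham in the authors' deposited table. Pcp4, a calmodulin regulator, was lower in RNA (143 and 177 FPKM in acupuncture and 354, 354 and 369 FPKM in sham) and in m6A, with -1.70 in acupuncture and 1.25 in sham in the authors' deposited table. The limma adjusted p of Six3 was 0.0367, and the RNA calls of Six3 and Pcp4 were lost without any 1 of the acupuncture or sham libraries.

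In the authors' deposited table Serpina3n had a peak of 2.09 in acupuncture and 2.65 in sham, a difference of -0.56, while its RNA rose by 5.39. Pde10a, which fell by 1.77 in RNA, had a 3' UTR peak of 2.07 in acupuncture and 1.23 in sham in the authors' deposited table, and Slc17a6 one of 1.57 in acupuncture and 0.333 in sham. Overlapping peaks of the ICH comparison, which shares the sham libraries, were listed for some of these genes. Against sham, the authors' deposited tables gave differences of 0.85 in acupuncture and 0.91 in ICH for Pde10a, -0.56 in acupuncture and -0.27 in ICH for Serpina3n, and 2.80 in acupuncture and 2.94 in ICH for C3. For Zbp1 the authors' deposited tables gave -3.92 in acupuncture and -3.46 in ICH, and for Six3 3.15 in acupuncture and -0.97 in ICH. Overlapping peaks need not have the same span. For Six3 the authors' adjusted p was 0.0302 in acupuncture (225 bp) and 4.1e-46 in ICH. Its signs are therefore not read as a reversal at 1 site. Of the 2 largest RNA risers, Saa3 had a 3' UTR peak of 0.932 in acupuncture and 4.11 in sham that did not pass in the authors' deposited table (authors' adjusted p = 0.0926), and Hmox1 was not listed there.

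Most m6A sites in mammals have GGAC or a close relative of it as their core. GGAC was looked for on the gene's strand in the first 50 transcribed bases under called 5' UTR peaks, where RefSeq (GRCm38.p6) gives sequence. It was found in 66 genes, among 885 tested genes with a called 5' UTR peak of which 679 had an entry, and in 21.6% of all 27025 genes with an entry. The 66 cover only bases under a peak, while the 21.6% covers every window with or without a peak. The values are therefore not to be set against each other. The genes whose RNA also passed are shown, because both measures differed from sham in them, with GGAC in capitals, 5' to 3'. Btbd17 held a second match. A match of letters is not a mapped site, and the peaks, whose spans include introns, are wider than the windows.
Btbd17 (chr11:114795857-114795882, minus strand): gtccctccagtGGACttagggacaga
Tpt1 (chr14:75845262-75845287, plus strand): gggggagccgcGGACggtgacgtagc
Pde1b (chr15:103514989-103515014, plus strand): tccctgcctccGGACattgcctgcta
Ptch1 (chr13:63565703-63565728, minus strand): caaagacctcgGGACtcacgcgcaat
Btbd17 was lower in RNA (log2 fold change -0.61) with an m6A difference of 0.90 in the authors' deposited table. Tpt1, an abundant growth-related protein, was higher in RNA (0.42) with an m6A difference of -0.64 in a 250 bp peak of the authors' deposited table. Pde1b, a calcium-dependent phosphodiesterase of the striatum, was lower in both (-1.04 in RNA, -0.43 in m6A in the authors' deposited table), and Ptch1, the Hedgehog receptor, was lower in RNA (-0.55) and higher in m6A (0.38 in the authors' deposited table). Their limma adjusted p in RNA was 0.0471 for Btbd17, 0.0328 for Tpt1, 0.0118 for Pde1b and 0.0442 for Ptch1. The call of Tpt1 was lost without any 1 of the acupuncture or sham libraries, and that of Btbd17 without acupuncture replicate 2 or any 1 sham library. Ptch1 lost its call without either acupuncture library, sham replicate 1 or sham replicate 3, and Pde1b without either acupuncture library or sham replicate 1.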

How the data were processed

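RNA and m6A were measured in mouse brain from immunoprecipitated and input libraries. The authors deposited FPKM per gene, per the file headers, and the submitters' processing notes name fastp, HISAT2, StringTie, HOMER and edgeR without roles, and human genome builds, although the gene IDs are those of mouse: 98.21% of 13220 genes matched by symbol to RefSeq GRCm38.p6 lay within 1000 bp of their RefSeq place. The m6A tables hold the authors' log2 ratios of immunoprecipitate over input and their p-values, both as deposited; the program that called the peaks was not given in the sources used here. Peak starts are given counted from 1.

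Input columns were matched to samples through titles by group and number. Those of acupuncture and sham are headed EA and control in the deposited table and were assigned as the headings left for these groups, and 2 columns that match no sample were not used. Genes that averaged 1 FPKM or more across the 7 input libraries entered a test on log2(FPKM + 1) with limma 3.58.1 in R 4.3.3, with 1 mean per group and Benjamini-Hochberg adjustment at 0.05. The fit was tested on simulated data. FPKM gives no read depth, so no counting interval is given. Peak lists were overlapped with bedtools 2.31.1, and tables were joined in Python 3.11.15 with pandas 2.3.3.

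Members and gene lists were chosen with earlier results of these data known. The 43 lists hold 544 genes, and members under the filter were not tested. Named genes are the largest called changes, the list members with the smallest p, the most abundant called genes, those that differ most between acupuncture and ICH, and the peaks with the largest differences. Further list members, the genes with promoter or GGAC matches and the genes of olfactory bulb and hypothalamus were named after their values were seen. Replicate numbers were not used to pair the samples. The deviations of same-numbered acupuncture and sham libraries correlated at 0.03 and -0.01. With 2 acupuncture libraries the deviations mirror each other, so these values cannot decide whether samples were handled in pairs. Alternatives were other pseudocounts, filters, scalings and variance models, the 5 libraries alone, each library left out, a replicate block, and stricter peak and overlap thresholds.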

Additional observations from a re-analysis of the deposited data

Results flagged for a closer look

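The test of acupuncture against ICH itself passed in 5 genes (limma adjusted p under 0.05). The pseudogenes, Ctla2a and Vps25 are uncertain, since reads can be shared with a similar or overlapping gene. Ctla2a, whose close relative is Ctla2b, was higher in acupuncture than in ICH by 1.76 on the log2 scale (17.2 and 19.2 FPKM in acupuncture, 5.37 and 4.03 FPKM in ICH and 1.15, 1.49 and 1.30 FPKM in sham). The ribosomal pseudogene Rpl10-ps3 was higher by 3.25 (17.3 and 18.4 FPKM in acupuncture, 1.22 and 0.778 FPKM in ICH and 1.01, 1.12 and 1.18 FPKM in sham). Gm14150, a predicted gene, was higher by 2.55 (8.83 and 7.15 FPKM in acupuncture, 0.836 and 0.265 FPKM in ICH and 0.765, 0.487 and 0.674 FPKM in sham). Vps25, an endosomal sorting protein whose gene overlaps Ramp2, was higher by 1.64 and did not pass against sham (21.9 and 26.2 FPKM in acupuncture, 6.89 and 7.11 FPKM in ICH and 21.4, 18.7 and 22.4 FPKM in sham). Rps12-ps4, a ribosomal pseudogene, was higher by 4.23 (50.3 and 44.9 FPKM in acupuncture, 2.09 and 1.17 FPKM in ICH and 24.1, 15.2 and 17.5 FPKM in sham).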

How the results depend on the processing

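Of 13666 genes, 1598 passed between acupuncture and sham. The median log2 fold change of all tested genes, 0.04 as deposited, was -0.04 after median centring, -0.05 after quantile normalization and -0.00047 after upper quartile scaling. The count was 707 with a mean of at least 5 FPKM, 3207 with the 5 acupuncture and sham libraries alone, 639 at 2-fold or more, 755 at an adjusted p under 0.01, and 805 to 3215 with 1 library left out, the highest without ICH replicate 1. Where a left-out library leaves a group with 1 library, that library is assumed to vary like the other groups. Between acupuncture and ICH it was 2 to 5105 with 1 library left out, and between ICH and sham 250 with a mean of at least 5 FPKM and 387 to 5212 with 1 library left out. With the replicate block, for numbers not known to pair the samples, the counts were 750, 3 and 351 for acupuncture against sham, acupuncture against ICH and ICH against sham. The authors' deposited table gave 6585 peaks at an adjusted p under 0.01, 2681 at a log2 difference of at least 1 and 6594 that span at most 1000 bp. Among those short peaks, a restriction chosen after seeing the data, 79.5% of the peaks in lower genes, 58.3% of those in higher genes and 69.7% of all were higher. With an overlap of at least 0.5 of each peak in place of 1 bp, 52.5% of acupuncture peaks were shared. The causes of these moves were not tested, apart from the fewer genes, peaks or libraries each leaves. FPKM hides depth, so the precision of low genes is unknown.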

Other observations

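Of 16 immediate early genes, which neurons switch on when active, 14 did not pass and 2 were lower than sham, Egr4 (-1.06) and Nr4a3 (-1.03); 15 of the 16 had a negative log2 fold change (median -0.83). Egr4 had 4.44 and 6.40 FPKM in acupuncture, 2.85 and 4.73 FPKM in ICH and 8.99, 15.8 and 12.8 FPKM in sham. Both calls were lost without either acupuncture library or without sham replicate 2 or 3. Red cell transcripts did not pass: Hbb-bs, a beta globin, had 91.1 and 127 FPKM in acupuncture, 27.1 and 72.7 FPKM in ICH and 65.2, 115 and 129 FPKM in sham, with overlapping groups. Tmsb4x, an actin-binding peptide, was among the most abundant RNAs that rose, with 659.6 and 522 FPKM in acupuncture, 467 and 353 FPKM in ICH and 259.5, 263 and 263 FPKM in sham (log2 fold change 1.16, limma adjusted p = 0.00514). None of 13 mitochondrially encoded genes passed (median -0.06).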
